A study of Homo sapiens with 36 samples.

Results

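The genes described here encode 10 receptor tyrosine kinases that bind platelet-derived growth factors, fibroblast growth factors, vascular endothelial growth factors, stem cell factor or collagen. They are PDGFRA, PDGFRB, KDR, KIT, DDR1, DDR2, FGFR1, FGFR2, FGFR3 and FGFR4, chosen by gene symbol from 17958 genes with a probe that names a single gene. All 10 had such a probe on the array, and the probe with the highest mean stood for a gene with several. Transcript levels came from 36 Affymetrix whole-transcript arrays of 3 breast cancer cell lines, MDA231 (MDA-MB-231), SUM159PT and BT549. Each line had 4 groups of 3 arrays, lettered A to C. The control group (siCONTROL) received a non-targeting siRNA and the solvent DMSO, and the siDUSP4 group received an siRNA against DUSP4 and DMSO. The remaining pair of groups received the control siRNA and 1 uM selumetinib (AZD6244), an inhibitor of the kinase MEK, for 4 h or 24 h before harvest. All groups were transfected with 10 nM siRNA and harvested 96 h later. The labels do not say that the arrays of a group came from separate cultures, so p-values measure the spread between these arrays, which may be technical.

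Receptor tyrosine kinases sit in the cell membrane, pair up when a ligand binds and phosphorylate one another, which recruits adaptor proteins and switches on RAS, RAF, MEK and ERK. ERK in turn drives transcription of its own brakes, among them the DUSP phosphatases and the Sprouty proteins, so that a block of MEK removes feedback as well as signal. In carcinoma cells treated with MEK inhibitors, several receptor kinases are known to rise, and PDGFRB, DDR1 and KDR have been discussed in that setting with loss of MYC. DUSP4 is one of those phosphatases and removes the activating phosphates from ERK in the nucleus. The question put to these arrays was which of the 10 receptor transcripts rise when MEK is inhibited, in which line, and whether knockdown of DUSP4 moves the same transcripts.

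The knockdown and the drug were visible in their direct readouts. DUSP4 was at means of 10.06, 7.14 and 7.13 on the log2 scale in the control arrays of MDA231, SUM159PT and BT549, and at 7.64, 5.30 and 4.89 after siDUSP4. DUSP6, a phosphatase gene that follows ERK activity, changed by -4.53, -2.91 and -1.60 in the same order of lines at 4 h and by -3.16, -2.28 and -0.96 at 24 h, all called at an adjusted p under 0.05. For 24 arrays the labels conflict over whether the line was SUM159PT or BT549, and the titles were followed. BT549 is known to lack RB1, and RB1 was at 6.71 to 8.15 on the 12 arrays titled BT549 against 8.96 to 9.55 on those titled SUM159PT. The 3 BT549 siDUSP4 arrays had the highest RB1 signals of that line, with a mean of 8.03 against 6.83 in its controls. Under the other labels these lines would exchange names in every sentence below, with no change to any value. Upper quartiles of the arrays ran from 7.48 to 8.03, and correlations between arrays of a group averaged 0.9703 to 0.9962 per array. The BT549 24 h array A and the MDA231 4 h arrays had the lowest correlations with their groups.

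The upstream sequences of PDGFRB and KDR are shown because these transcripts moved in opposite directions after DUSP4 knockdown in SUM159PT. They are the 250 bases before the RefSeq start of each gene on GRCh38.p14, minus strand in both cases, at chr5:150155846-150156095 and chr4:55125596-55125845. Capitals mark matches to short motifs searched on both strands, which were the NF-Y letters CCAAT, the GC box GGGCGG bound by Sp1, the E-box CACGTG bound by MYC, and the AP-1 letters TGACTCA.
PDGFRB: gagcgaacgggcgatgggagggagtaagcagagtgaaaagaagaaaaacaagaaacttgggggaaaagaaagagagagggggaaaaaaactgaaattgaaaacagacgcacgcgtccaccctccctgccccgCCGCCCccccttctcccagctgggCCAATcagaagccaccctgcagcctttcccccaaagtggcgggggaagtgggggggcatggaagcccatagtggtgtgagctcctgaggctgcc
KDR: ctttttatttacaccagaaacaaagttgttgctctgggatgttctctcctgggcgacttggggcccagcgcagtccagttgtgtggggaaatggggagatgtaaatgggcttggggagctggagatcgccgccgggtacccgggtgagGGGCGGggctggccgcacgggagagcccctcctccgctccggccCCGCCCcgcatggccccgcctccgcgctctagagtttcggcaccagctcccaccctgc
The PDGFRB window held CCAAT, 94 to 90 bases before the start, and GGGCGG on the opposite strand, 118 to 113 bases before it. The KDR window held GGGCGG in each orientation, at 102 to 97 and at 58 to 53 bases before the start, and none of the NF-Y letters. The letters CCAAT occurred in 32% of 35116 RefSeq windows of this length, the GC box in 42.6%, the E-box in 6.34% and the AP-1 letters in 4.2%. Neither window held the E-box or the AP-1 letters. Among the members listed in that table, the E-box occurred at 1 of 2 starts of FGFR4 and the AP-1 letters at 1 of 8 starts of DDR1. A match describes the letters and is not evidence that a factor binds there.

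In the control arrays each line had its own receptor profile. SUM159PT had the highest PDGFRA, PDGFRB, KDR and DDR1 signals of the lines, and BT549 the highest DDR2, FGFR1 and FGFR2 signals. MDA231 lay between them for KDR and FGFR1, had the lowest DDR2 signal, and did not differ from BT549 beyond the spread for the PDGF receptors and DDR1. All comparisons of lines come from the same limma model, which called 44.8% of all genes between MDA231 and SUM159PT, 48.1% between MDA231 and BT549, and 50.2% between SUM159PT and BT549. Of the 10 receptors, 6, 5 and 8 were called in these comparisons. The array table has no detection calls. The median probe level of 5.328 is given as a reference only, since signals of different probes cannot be ranked as amounts of RNA.

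PDGFRA, a receptor for PDGF-A and other PDGF dimers, was at 11.05, 10.85 and 10.86 in SUM159PT controls. In MDA231 it was at 4.61, 4.10 and 4.46, and in BT549 at 4.48, 4.75 and 4.62, with no overlap with SUM159PT. The difference of MDA231 from SUM159PT was -6.53 ± 0.13 (SE; adjusted p = 1e-28), whereas MDA231 and BT549 differed by -0.23 (95% interval -0.49 to 0.04; adjusted p = 0.17). PDGFRB, the receptor for PDGF-B and PDGF-D, was at 8.04, 7.89 and 8.22 in SUM159PT, and at 4.20 to 4.49 in the control arrays of MDA231 and BT549. SUM159PT lay above BT549 by 3.70 ± 0.15 (adjusted p = 5.3e-21), and the other pair of lines did not differ beyond their spread (-0.05, interval -0.34 to 0.25).

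KDR, the main signalling receptor for VEGF-A, was at 6.51, 6.44 and 6.61 in SUM159PT, at 6.01, 6.13 and 5.85 in MDA231, and at 4.05, 4.22 and 3.87 in BT549. The 3 lines did not overlap. SUM159PT lay above MDA231 by a small step (MDA231 minus SUM159PT -0.52 ± 0.15, adjusted p = 0.0039), and MDA231 lay above BT549 by 1.95 ± 0.15 (adjusted p = 3.5e-13). KIT, the receptor for stem cell factor, stayed between 3.92 and 4.93 on the 36 arrays, all below the median probe level, and no pair of lines was called. PDGFRA, KIT and KDR are neighbours on chromosome 4.

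The discoidin domain receptors bind collagen rather than a soluble growth factor. DDR1, the epithelial member, was at 8.83, 8.81 and 8.87 in SUM159PT, at 6.90, 7.12 and 7.20 in MDA231, and at 6.64, 6.95 and 6.84 in BT549. The last 2 lines overlapped (difference 0.26, interval -0.02 to 0.54). DDR2, the mesenchymal member, which binds fibrillar collagen, was at 11.09, 11.22 and 11.08 in BT549, at 7.85, 7.85 and 7.73 in SUM159PT, and at 5.25, 5.37 and 5.18 in MDA231. BT549 exceeded SUM159PT by 9.99-fold and MDA231 by 58.3-fold (adjusted p = 1.9e-24 and 2.5e-30). The second probe of DDR2 gave the same order, with control means of 9.27, 5.60 and 3.90.

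Among the FGF receptors, FGFR1 was above the median probe level on all 36 arrays. It was at 8.75, 8.57 and 8.52 in BT549, at 7.99, 8.08 and 8.04 in MDA231, and at 7.30, 7.26 and 7.33 in SUM159PT, and each step of that order was called (adjusted p = 7.4e-05 for BT549 over MDA231 and 1.9e-06 for MDA231 over SUM159PT). FGFR2, known in its epithelial splice form as the receptor for FGF7 and FGF10, was at 5.45, 5.93 and 5.51 in BT549, against 4.36 to 4.78 in the controls of the other lines. BT549 was 2.02-fold above MDA231 (adjusted p = 1.6e-06). FGFR3 stayed between 4.40 and 5.25 on all arrays with no pair of lines called. FGFR4, the receptor for FGF19 in liver, ranged from 4.89 to 5.52, and 28 of 36 arrays were below the median probe level. It was higher in BT549 than in MDA231 and SUM159PT by 0.28 and 0.27 (adjusted p = 0.037 and 0.041). These calls were lost in 5 and 6 of 12 alternatives, both of them with the replicate block (adjusted p = 0.059 and 0.064) and without BT549 control array A or B.

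**Figure D1:**
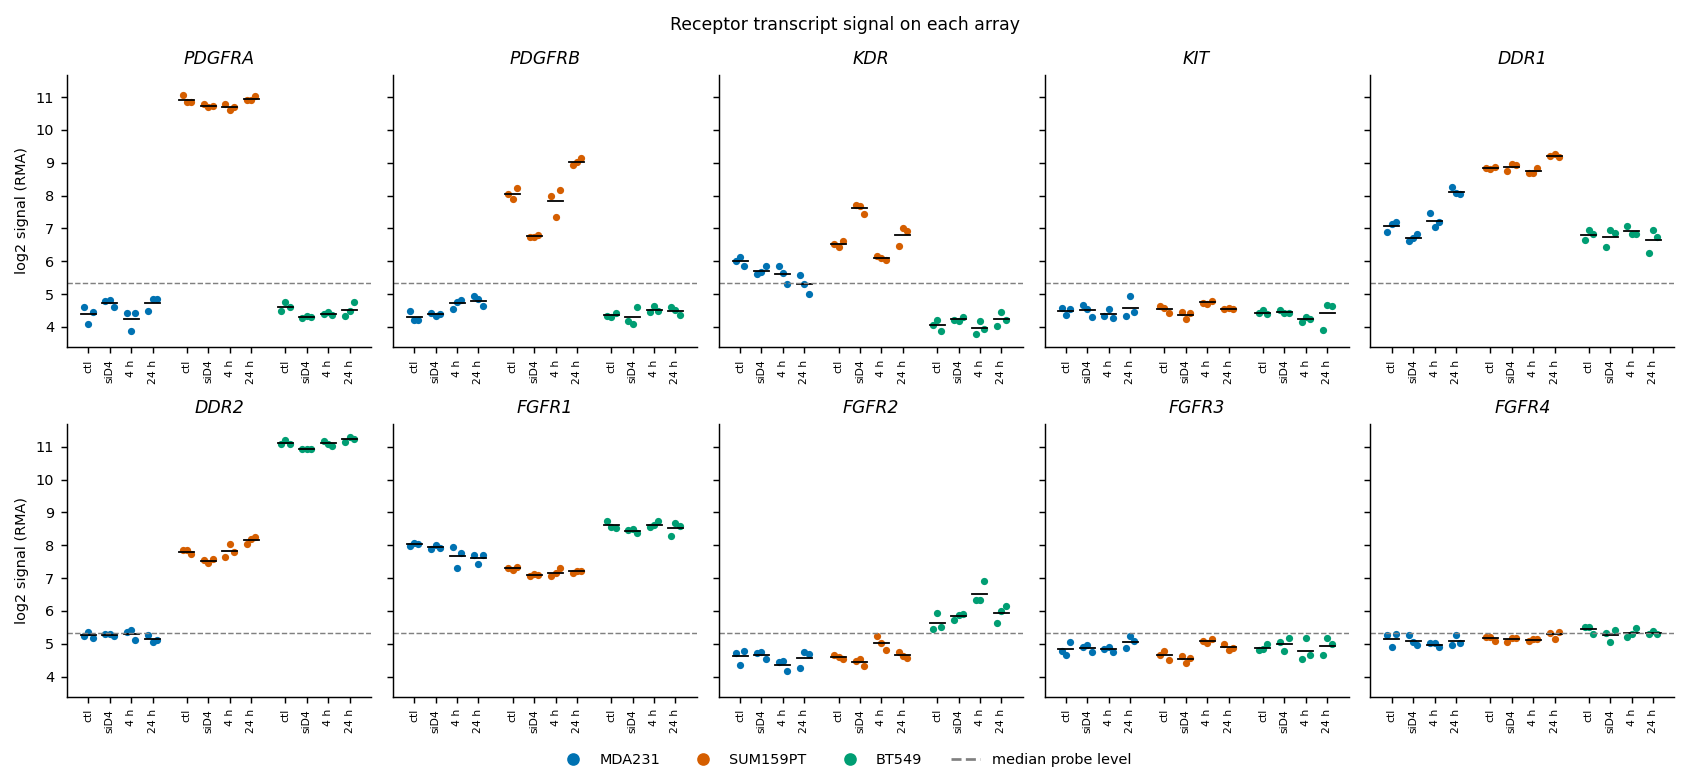
Log2 signal of each receptor transcript on each of the 36 arrays, by line (colour) and group: control (ctl), siDUSP4 (siD4), selumetinib for 4 h and for 24 h. Short bars are means of 3 arrays and the dashed line is the median probe level of 5.328. PDGFRA and PDGFRB stand high in SUM159PT and DDR2 in BT549, while KIT and FGFR3 lie below the dashed line throughout.

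Over the 9 comparisons of a treatment with the control in a line, 10 of 90 tests of a member were called, 6 higher and 4 lower, in 6 of the 10 receptors. PDGFRA, KIT, FGFR3 and FGFR4 were called in none. The comparisons within a line share their control arrays. In bulk RNA, a change in every cell and a change in the share of cells that carry a transcript cannot be told apart.

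After 24 h of selumetinib, 4 of the 10 receptors were called in MDA231, where 17.7% of all genes were called, 7.36% higher and 10.3% lower. DDR1 and PDGFRB rose, and KDR and FGFR1 fell. In SUM159PT 2 of 10 rose, PDGFRB and DDR2, where 4.28% of all genes were called, 1.34% higher and 2.94% lower. In BT549 no receptor was called by limma, against 15.1% of all genes (2.66% higher, 12.4% lower), and none had an unadjusted p under 0.05. That share was 7.06% with repeated quantile normalization, 7.68% with the arrays of BT549 alone and 0.0835% with only the 2 groups compared. The median change of the 10 receptors was 0.01, 0.18 and 0.03 in MDA231, SUM159PT and BT549, beside 0.02, -0.01 and -0.09 over all genes tested.

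PDGFRB in SUM159PT was at 8.04, 7.89 and 8.22 in controls and at 8.92, 9.02 and 9.13 after 24 h. All 3 treated arrays lay above all 3 controls. The rise was 0.98 ± 0.15 on the log2 scale, or 1.97-fold (n = 3 per group; limma adjusted p = 4.8e-05). After 4 h the arrays read 7.99, 7.34 and 8.17 and overlapped the controls (-0.21, interval -0.51 to 0.08, adjusted p = 0.42). The step from 4 h to 24 h was 1.19 ± 0.15 (adjusted p = 2.8e-06). In MDA231 PDGFRB read 4.49, 4.20 and 4.22 in controls, 4.56, 4.77 and 4.82 at 4 h, and 4.94, 4.84 and 4.63 at 24 h. The 24 h change was 0.50 ± 0.15 (adjusted p = 0.012) with no overlap, but both groups lie below the median probe level. Its call was lost without control array B (0.45, adjusted p = 0.065), control array C (0.46, 0.053) or 24 h array A (0.44, 0.062). In BT549, where the transcript was equally low, the 24 h change was 0.14 (interval -0.15 to 0.44). The changes at 24 h differed between the lines (F test, adjusted p = 0.019).

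DDR1 rose in MDA231 from 6.90, 7.12 and 7.20 to 8.25, 8.07 and 8.04 at 24 h, a rise of 1.05 ± 0.14 or 2.07-fold (adjusted p = 7.6e-07). The groups did not overlap. At 4 h the arrays read 7.47, 7.04 and 7.18, overlapping the controls (0.16, interval -0.13 to 0.44; called only with repeated quantile normalization, 0.37, adjusted p = 0.016), and 24 h exceeded 4 h by 0.89 ± 0.14 (adjusted p = 1.3e-05). All 3 DDR1 probes gave 1.05 or 1.06 in MDA231 at 24 h, but whether they read separate parts of the transcript was not examined. In SUM159PT, DDR1 read 8.83, 8.81 and 8.87 in controls and 9.21, 9.27 and 9.18 at 24 h. These groups did not overlap either, and the difference of 0.38 ± 0.14 had an adjusted p of 0.13 when all 36 arrays shared 1 variance. With the 12 arrays of SUM159PT alone it was 0.38 ± 0.07 (adjusted p = 0.0069), in a fit that called 10.8% of all genes. In BT549 the 24 h arrays read 6.24, 6.95 and 6.74, spread around the controls of 6.64, 6.95 and 6.84 (-0.17, interval -0.45 to 0.11). The reading of 6.24 was from array A, which had the lowest mean correlation with its group of all 36 arrays (0.9703). The lines differed in the DDR1 change at 24 h (F test, adjusted p = 0.00019), when 9.91% of all genes differed between lines.

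DDR2 in SUM159PT went from 7.85, 7.85 and 7.73 to 8.03, 8.18 and 8.25 at 24 h. The groups did not overlap, and the change of 0.34 ± 0.10 had an adjusted p of 0.038. The call is weak: 7 of 14 alternatives lost it, among them the mean of the DDR2 probes (0.16, adjusted p = 0.68), since the second probe changed by -0.03. Leaving out any control array, or 24 h array B or C, also ended it (0.30 to 0.36, adjusted p = 0.079 to 0.18). The DDR2 changes at 24 h were -0.12 in MDA231 and 0.11 in BT549, neither called. The second probe went the other way in both lines, with 0.18 and -0.23.

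KDR fell in MDA231 at 24 h. It read 6.01, 6.13 and 5.85 in controls, 5.85, 5.63 and 5.32 at 4 h, and 5.59, 5.32 and 4.99 at 24 h, by when no treated array reached a control. The 24 h change was -0.70 ± 0.15 (1.62-fold lower, adjusted p = 0.00071), and at 4 h it was -0.40 (interval -0.70 to -0.09, adjusted p = 0.066). In SUM159PT the order was different: 6.51, 6.44 and 6.61 in controls, 6.16, 6.10 and 6.04 at 4 h, and 6.46, 7.01 and 6.93 at 24 h. The 4 h arrays lay below all controls (-0.42 ± 0.15, adjusted p = 0.1; 0.04 with the arrays of SUM159PT alone), and the 24 h arrays overlapped them (0.28, interval -0.02 to 0.58). The step from 4 h to 24 h was 0.70 ± 0.15 (adjusted p = 0.0045; 0.59 and 0.054 without 24 h array B). BT549, with KDR at 3.77 to 4.44 on all its arrays, had changes of -0.09 and 0.18. The KDR changes at 24 h differed between lines (F test, adjusted p = 0.0022).

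**Figure D2:**
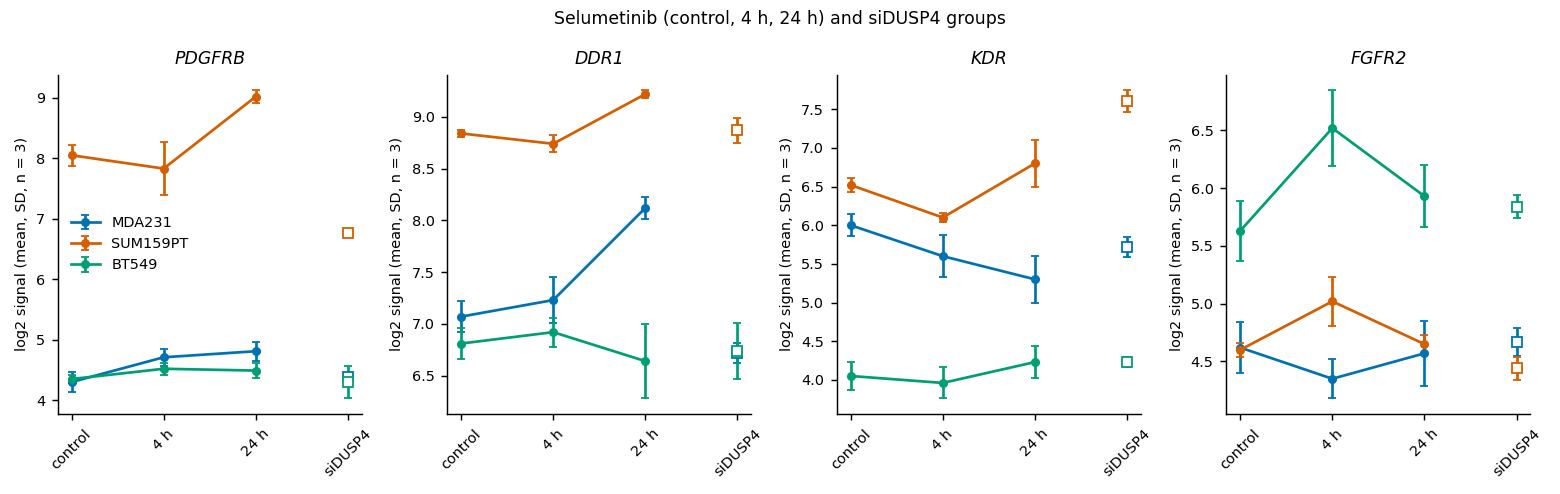
Mean log2 signal with SD (n = 3 arrays) of PDGFRB, DDR1, KDR and FGFR2 in controls and after 4 h and 24 h of selumetinib (joined circles, placed at equal steps), and after siDUSP4 (open squares), by line. The vertical axes differ between panels. PDGFRB in SUM159PT and DDR1 in MDA231 are highest at 24 h, and FGFR2 in BT549 is highest at 4 h.

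FGFR1 was the FGF receptor that fell under selumetinib, in MDA231. Its arrays read 7.99, 8.08 and 8.04 in controls, 7.96, 7.32 and 7.77 at 4 h, and 7.69, 7.42 and 7.70 at 24 h. No treated array reached the lowest control. The change was -0.35 ± 0.12 at 4 h (adjusted p = 0.035), where 1 of 10 receptors was called against 15.6% of all genes (1.11% higher, 14.5% lower), and -0.44 ± 0.12 at 24 h (adjusted p = 0.0062). The 4 h share of all genes was 2.65% with the arrays of MDA231 alone, 0.83% with the 2 groups alone and 38.5% with array weights. The 4 h value of FGFR1 rests on array B: without it the change was -0.17 (adjusted p = 0.45). That call was also lost without any of the 3 control arrays (-0.38 to -0.33, adjusted p = 0.059 to 0.11) or without 4 h array C (-0.40, 0.062), with repeated quantile normalization (-0.13, 0.26), with the arrays of MDA231 alone (0.18) and with the 2 groups alone (0.38). At 24 h, leaving out array B gave -0.35 (adjusted p = 0.067), and the call was also lost with the arrays of MDA231 alone (-0.44, 0.073). In SUM159PT and BT549 the changes of FGFR1 under selumetinib lay between -0.13 and 0.02 and none was called. No difference between the lines was called for FGFR1 (F test, adjusted p = 0.33 at 4 h and 0.27 at 24 h). The MDA231 4 h arrays had low correlations with each other, and all genes together shifted there by a median of -0.13, as did the 10 receptors; the part of this shift in the FGFR1 value was not tested.

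FGFR2 rose in BT549 at 4 h. It read 5.45, 5.93 and 5.51 in controls, 6.32, 6.32 and 6.90 at 4 h, and 5.63, 5.99 and 6.16 at 24 h. All 4 h arrays lay above all controls, and the rise was 0.89 ± 0.16 or 1.85-fold (adjusted p = 0.0025). It was the only receptor called in that comparison, in which 0.652% of all genes were called, 0.161% higher and 0.49% lower. The value was 0.69 (adjusted p = 0.057) without 4 h array C, and the adjusted p was 0.078 with the arrays of BT549 alone and 0.072 with the 2 groups alone. At 24 h its change from control was 0.30 (interval -0.02 to 0.62, adjusted p = 0.19). From 4 h to 24 h the signal fell by 0.59 (SE 0.16, adjusted p = 0.023; lost in 6 of 13 alternatives, at -0.39 without 4 h array C and -0.44 without 24 h array A). In SUM159PT FGFR2 read 4.66, 4.61 and 4.53 in controls and 5.24, 5.02 and 4.81 at 4 h, all below the median probe level and without overlap (0.42, interval 0.10 to 0.74, adjusted p = 0.12). In MDA231 the 4 h change was -0.27 (interval -0.59 to 0.05). The lines differed in the 4 h change of FGFR2 (F test, adjusted p = 0.0085), when 1.84% of all genes differed.

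At 4 h in SUM159PT no receptor was called by limma with all arrays in 1 model, against 4.28% of all genes (0.473% higher, 3.81% lower). KDR, FGFR2 and FGFR3 had an unadjusted p under 0.05 there. Their changes were -0.42, 0.42 and 0.42, and they were called with the 12 arrays of SUM159PT alone (adjusted p = 0.04, 0.017 and 0.008), a fit that called 15% of all genes. With repeated quantile normalization no receptor was called. FGFR2 and FGFR3 lay below the median probe level. The median change of all genes was -0.01, and -0.1 with dim genes left out. Upper quartiles were 7.70 to 7.81 at 4 h and 7.90 to 7.95 in controls. The part of such shifts in these changes was not tested. FGFR3, a receptor known for activating mutations in bladder cancer, was at or below 5.25 in every array.

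Averaged over the lines, selumetinib raised PDGFRB by 0.54 ± 0.08 (adjusted p = 1.1e-05) and DDR1 by 0.42 ± 0.08 (0.00017) at 24 h, and lowered FGFR1 (-0.21 ± 0.07, 0.018). These 3 of 10 compare with 26.5% of all genes, 7.24% higher and 19.2% lower. FGFR1 lost its call without MDA231 24 h array B (-0.18, adjusted p = 0.053) and with repeated quantile normalization (-0.10, 0.088). At 4 h KDR was lower (-0.30 ± 0.09, 0.017) and FGFR2 higher (0.35 ± 0.09, 0.0098), 2 of 10 against 13.8% of all genes (1.12% higher, 12.7% lower). The KDR call was lost with repeated quantile normalization (-0.26, 0.052). Between 4 h and 24 h, PDGFRA, PDGFRB and DDR1 were higher at 24 h (0.29, 0.42 and 0.37; adjusted p = 0.01, 0.00088 and 0.0021), 3 of 10 against 12.1% of all genes (7.65% higher, 4.47% lower). By line, 2 receptors were higher at 24 h than at 4 h in MDA231, PDGFRA and DDR1, against 24.9% of all genes (20.4% higher, 4.48% lower). In SUM159PT 2 were higher, PDGFRB and KDR, against 3.01% (2.32% higher, 0.685% lower), and in BT549 FGFR2 was lower, against 7.73% (1.91% higher, 5.82% lower). For PDGFRA none of the changes from control was called. In MDA231 it moved from 4.42, 3.88 and 4.43 at 4 h to 4.49, 4.85 and 4.85 at 24 h (0.49, adjusted p = 0.0062), which was lost without 4 h array B (0.31, 0.11), with the arrays of MDA231 alone (0.49, 0.068) and with the 2 groups alone (0.49, 0.17).

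Knockdown of DUSP4 called 2 of 10 receptors in SUM159PT, where it called 2.83% of all genes, 1.05% higher and 1.78% lower. PDGFRB went from 8.04, 7.89 and 8.22 in controls to 6.74, 6.74 and 6.79. No knockdown array came near a control, and the change was -1.29 ± 0.15, or 2.45-fold lower (adjusted p = 2.9e-07). KDR went the other way, from 6.51, 6.44 and 6.61 to 7.71, 7.67 and 7.45, a rise of 1.09 ± 0.15 or 2.13-fold (adjusted p = 1e-05) with no overlap. Both calls held in all 14 alternatives. In SUM159PT PDGFRB was thus lower after siDUSP4 and higher after 24 h of selumetinib, each against the same control arrays. DUSP4 itself was also lower under the drug. Averaged over the lines it changed by -1.45 at 4 h and -0.94 at 24 h (limma adjusted p = 2.1e-12 and 1.1e-08). PDGFRA in SUM159PT read 10.79, 10.70 and 10.72 after siDUSP4, just below the controls (-0.18, interval -0.45 to 0.09, adjusted p = 0.62).

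In MDA231 and BT549 no receptor was called by limma after siDUSP4, against 17.6% of all genes in MDA231 (7.86% higher, 9.77% lower) and 14.2% in BT549 (4.97% higher, 9.22% lower). In each of these lines 2 receptors had an unadjusted p under 0.05. In MDA231 these were PDGFRA (0.35, adjusted p = 0.067) and DDR1, which read 6.62, 6.71 and 6.83 against 6.90, 7.12 and 7.20 in controls (-0.35, adjusted p = 0.079). In BT549 they were PDGFRA (-0.32, adjusted p = 0.11), at a level below the median probe, and DDR2, at 10.92, 10.92 and 10.93 against 11.09, 11.22 and 11.08 (-0.21, adjusted p = 0.18). PDGFRB changed by 0.08 (interval -0.22 to 0.37) in MDA231 and by -0.05 (interval -0.35 to 0.24) in BT549, and KDR by -0.28 and 0.18. The siDUSP4 changes differed between lines for PDGFRB, KDR and PDGFRA (F test, adjusted p = 1.3e-05, 6.2e-05 and 0.025), when 15.5% of all genes differed. Control means lay below the median probe level for PDGFRB in MDA231 and BT549 (4.30 and 4.35) and for KDR in BT549 (4.05). PDGFRA was below it in MDA231 and BT549 too. A fall from such levels might not show. Averaged over the lines, 3 of 10 were called against 18.7% of all genes (7.43% higher, 11.3% lower): PDGFRB (-0.42, adjusted p = 0.00037), KDR (0.33, 0.0052) and DDR2 (-0.16, 0.0497). DDR2 lost its call in 18 of 24 alternatives, 16 of which left out 1 array (-0.17 to -0.14, adjusted p = 0.052 to 0.11). Within SUM159PT DDR2 read 7.56, 7.45 and 7.58, below all controls (-0.28, adjusted p = 0.14).

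**Figure D3:**
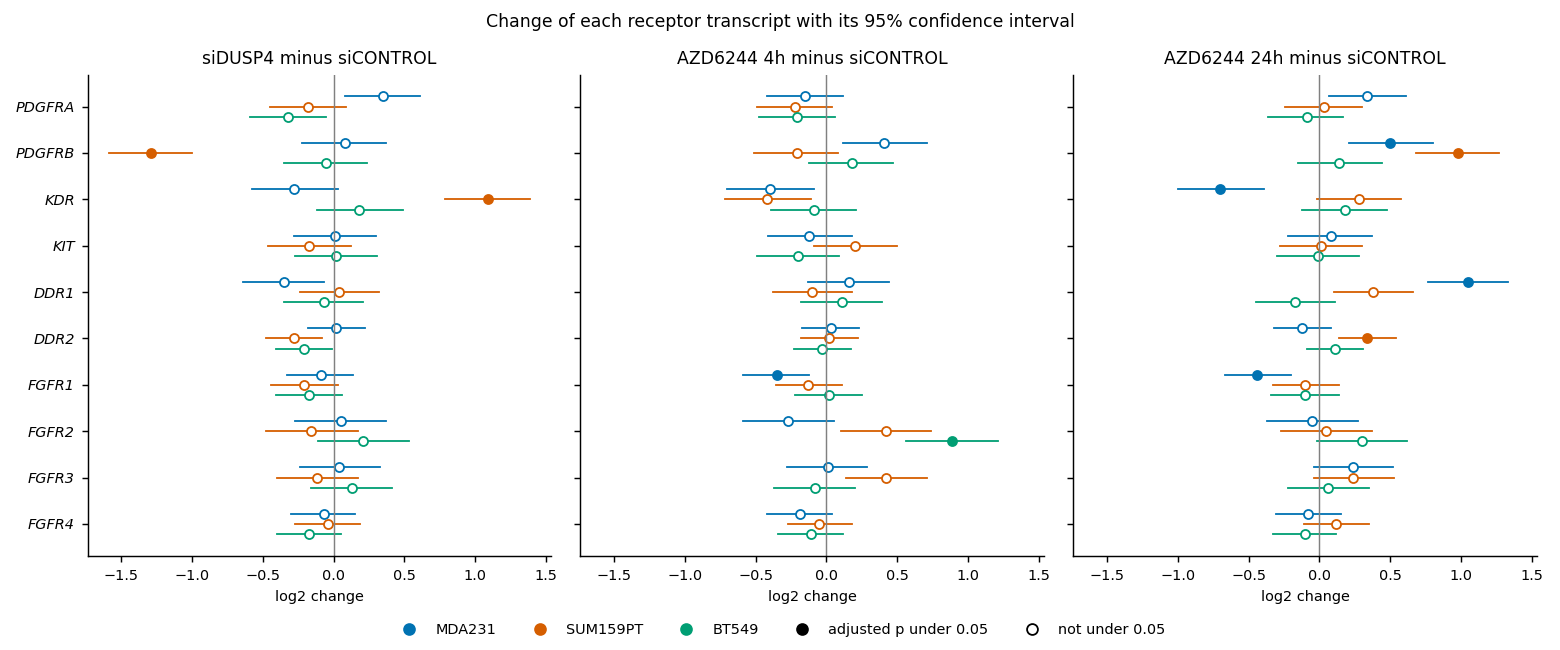
Log2 change from the control of each receptor transcript after siDUSP4, 4 h and 24 h of selumetinib, by line, with 95% confidence intervals from the model over 36 arrays. Filled circles have an adjusted p under 0.05. The points farthest from 0 are PDGFRB (-1.29) and KDR (1.09) after siDUSP4 in SUM159PT, and DDR1 in MDA231 (1.05) and PDGFRB in SUM159PT (0.98) at 24 h.

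The ligands of the same families were measured beside their receptors. Of 10 PDGF, VEGF and KIT ligands, 3 rose and 1 fell in the mean 24 h effect (median 0.02, all genes -0.01), beside 7.24% of all genes higher and 19.2% lower. PDGFA fell, by 0.78 in the mean, with changes of -1.17 in MDA231 and -0.83 in BT549 (adjusted p = 6.8e-07 and 0.0011). PDGFD, a ligand of PDGFRB, rose by 0.51 in the mean (adjusted p = 9.3e-05), and by 0.73 in SUM159PT (0.0063), where PDGFRB rose by 0.98. VEGFB rose by 0.35 in the mean, and KITLG, which encodes stem cell factor, rose by 1.06 in MDA231 (adjusted p = 0.00027) while KIT stayed low. At 4 h, 4 of the 10 fell and none rose, beside 12.7% of all genes lower and 1.12% higher. They were PDGFA, VEGFA, PGF and VEGFC. After siDUSP4, 6 of 10 fell and none rose, beside 11.3% of all genes lower and 7.43% higher. VEGFA fell by 0.35, PGF by 0.44 and VEGFC by 0.35 in the mean (adjusted p = 0.00013, 0.00038 and 0.0014). In SUM159PT, where KDR rose, VEGFA was the only ligand called after siDUSP4 (-0.42, adjusted p = 0.033).

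Of 17 FGF ligands, 1 rose and 2 fell at 24 h in the mean (median 0.08), a smaller share than the 26.5% of all genes called there. FGF1 changed by -2.10 in MDA231 (adjusted p = 2.9e-13) and by 0.14 and -0.34 in SUM159PT and BT549, neither called. FGF5 fell by 1.94 in MDA231 and by 0.60 in BT549 (adjusted p = 2e-09 and 0.031). At 4 h FGF5 alone was called (-0.74 in the mean, adjusted p = 1.7e-05), and after siDUSP4 FGF21 and FGF1 fell by 0.34 and 0.28. Of all genes 13.8% and 18.7% were called in these mean effects. Of 10 collagen genes, 3 rose and 2 fell at 24 h in the mean (median 0.03), beside 7.24% of all genes higher and 19.2% lower. COL5A1 rose by 0.59 in MDA231 (adjusted p = 9.6e-06), where DDR1 rose, and COL1A1 rose by 0.51 in SUM159PT (0.0082). COL8A1 and COL4A1 fell in the mean by 0.36 and 0.27. After siDUSP4 3 collagens fell and none rose in the mean (median -0.09), beside 11.3% of all genes lower, COL4A2 by 0.41, COL5A1 by 0.27 and COL4A1 by 0.31.

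Of 10 co-receptors and decoys, which hold ligands near the kinases, 5 fell and none rose in the mean after siDUSP4 (median -0.27), beside 11.3% of all genes lower. NRP1, a co-receptor of KDR, changed by -0.71 in MDA231 and -0.59 in BT549 (adjusted p = 1.4e-06 and 4e-05), and by -0.26 in SUM159PT (0.16), the line in which KDR rose. At 24 h 2 of the 10 rose and 1 fell in the mean, beside 7.24% of all genes higher and 19.2% lower. SDC2, a syndecan that binds FGFs, rose by 0.87 in MDA231 (adjusted p = 2e-05). FGFRL1, an FGF receptor without a kinase domain, rose by 0.20 in the mean, and NRP2 fell by 0.31 (limma adjusted p = 0.0064). The other receptors of the PDGF and VEGF class, FLT1, FLT4, CSF1R and FLT3, had no call by limma in the 3 mean effects and none with an unadjusted p under 0.05. CSF1R was called in MDA231 at 24 h (0.44, adjusted p = 0.04). Of 14 adaptors and effectors, 1 rose and 2 fell at 24 h in the mean (median -0.07), beside 7.24% and 19.2% of all genes: STAT3 by 0.25, PTPN11 (-0.28) and GAB2 (-0.35). After siDUSP4 PIK3CB rose by 0.44, and SHC1, PIK3R1 and GAB1 were the 3 that fell, beside 7.43% of all genes higher and 11.3% lower.

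Feedback and turnover genes fell more often than they rose under selumetinib, 8 and 0 of 13 at 4 h and 6 and 1 of 13 at 24 h, with medians of -0.36 and -0.25. Of all genes 12.7% fell and 1.12% rose at 4 h, and 19.2% fell and 7.24% rose at 24 h. The Sprouty genes led, SPRY4 with -2.83 and SPRY2 with -1.20 at 4 h in the mean. All 9 ERK readout genes fell at both times in the mean effect, EGR1 by 2.31 at 4 h. By line, 9 were called lower in MDA231 at both times, 6 in SUM159PT at both times, and 5 and 6 in BT549 at 4 h and 24 h. Of all genes, 14.5% and 10.3% were called lower in MDA231 at 4 h and 24 h. These shares were 3.81% and 2.94% in SUM159PT, and 0.49% and 12.4% in BT549. SPRY2 and SPRY4 belong to both the feedback list and the ERK readout list. SPRY1 fell by 0.76 and LRIG1, which promotes receptor breakdown, by 0.55 after siDUSP4. Of the ERK readout genes, those with the smallest adjusted p in the mean siDUSP4 effect were PHLDA1, ETV4 and ETV5. They changed by -0.39, -0.38 and -0.28 (limma adjusted p = 0.00012, 0.013 and 0.029). Being picked by that p, they do not describe the list as a whole. Of all genes 11.3% were called lower and 7.43% higher in that effect. MYC fell at 4 h by 1.05 in MDA231 and by 0.50 in SUM159PT (adjusted p = 4.5e-09 and 0.0031), and changed by -0.21 in BT549 (0.6). At 24 h its changes were -0.66, -0.23 and -0.28 (adjusted p = 7.3e-06, 0.22 and 0.049). The SUM159PT change at 24 h had an interval of -0.43 to -0.03. After siDUSP4 MYC changed by 0.10, -0.09 and 0.05, none called. The part of MYC in the receptor changes was not tested.

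**Figure D4:**
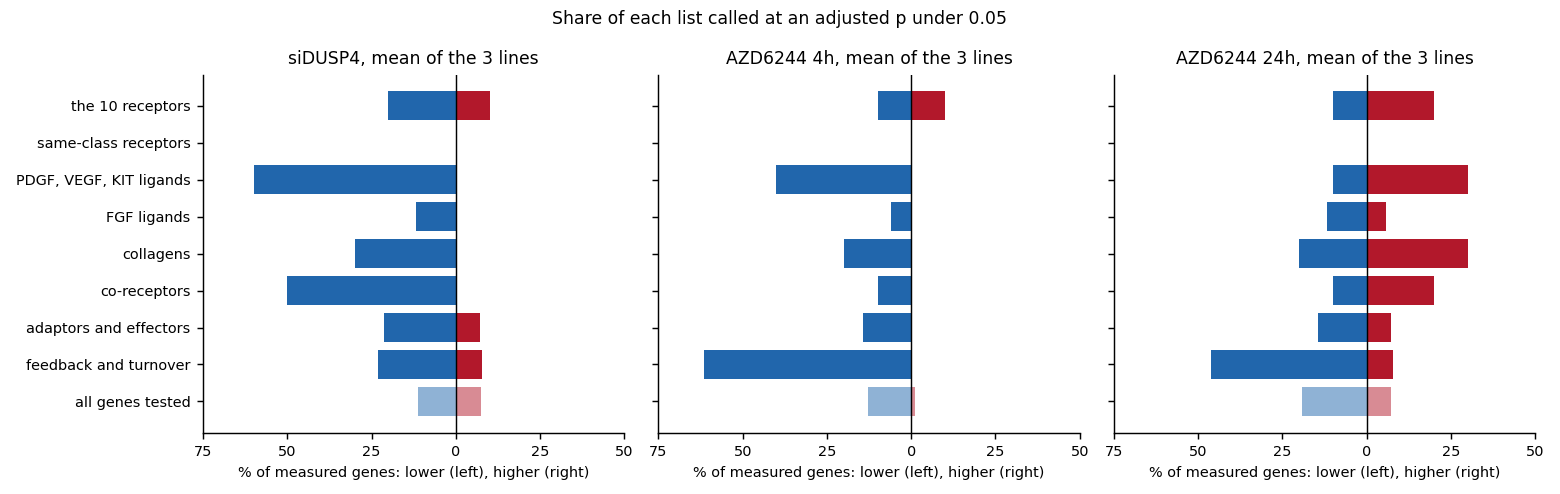
Percent of the measured genes of each list that were called lower (blue, left) or higher (red, right) at an adjusted p under 0.05 in the effects averaged over the lines. The pale bars give the same over all 17958 genes. After siDUSP4, 6 of 10 PDGF, VEGF and KIT ligands and 5 of 10 co-receptors were lower and none higher.

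The receptors are better known from other cell types, so markers of those cells were examined. Of 8 endothelial markers 1 to 3 per group reached the median probe level, among PECAM1, ROBO4, TIE1 and ERG, and CDH5, TEK, VWF and EMCN never did. In SUM159PT, the mean of the 8 over an array was 4.99 to 5.09 in controls and 4.80 to 4.83 after siDUSP4, when KDR rose. Of 4 mast cell and blood markers at most PTPRC reached that level. Of 7 pericyte and fibroblast markers 5 or 6 did, and their mean in SUM159PT was 7.52 to 7.65 in controls, 7.26 to 7.36 after siDUSP4 and 7.65 to 7.77 after 24 h. In BT549, where PDGFRB changed by -0.05 after siDUSP4, the mean was 6.22 to 6.31 in controls and 5.73 to 5.82 after siDUSP4. The part of these markers in the PDGFRB result was not tested. The mesenchymal markers stood at 5 or 6 of 6 in every group, and of 7 epithelial markers 2 to 4 reached the median level, KRT8 and KRT18 in all groups. In MDA231 the epithelial mean was 7.74 to 7.78 in controls and 8.06 to 8.15 at 24 h, when DDR1 rose, and its part in that result was not tested.

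The genes most like each called receptor over the 36 arrays, after each line's mean was removed, were found by Pearson's r. For PDGFRB they were SHISAL2B and SLC2A5, a fructose transporter gene (0.88 each), and for DDR1 they were VWA5A and the transcription factor gene SOX4 (0.91 each). KDR was closest to NFKB1 and C6orf141 (0.76 each), and FGFR1 to HPCAL1 and RHBDF1 (0.84 and 0.82). DDR2 was closest to IDO1 and C6 (0.72 and 0.70), and FGFR2 to TUBA3FP and OR4A47 (0.75 and 0.70). These values describe arrays that share treatments and processing, and carry no test.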

How the data were processed

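The authors deposited log2 values of 33297 probe sets on 36 arrays. Per the submitters' processing notes, these came from RMA as run by Expression Console 1.1. They were used as deposited. RMA corrects background, equalises array distributions at the probe level and summarises the probes of a transcript. The deposited values were still unequal in distribution, with upper quartiles of the arrays from 7.48 to 8.03. GEO's platform annotation gave 19181 probe sets a single symbol, 2055 several and 12061 none. The probe set with the highest mean was kept for the 895 genes with several, leaving 17958 genes. The genome build of the array design is not given in the sources used here. Arrays of a group were compared before averaging and none were identical.

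A limma 3.58.1 model (R 4.3.3) with 12 group means was fitted over the 36 arrays (24 residual and 7.8 prior degrees of freedom). P-values were adjusted by Benjamini-Hochberg over all genes in each contrast, and genes with an adjusted p under 0.05 were called. F tests compared changes between lines. The script was tested on simulated data. The number of arrays limits precision. The letters A to C were examined as pairs: of 27 same-letter correlations of deviations between treated and control arrays, 6 were over 0.1 (median -0.01). Only for SUM159PT at 4 h were all 3 over 0.1, and with the replicate block 0 receptors were called there, as without it. Alternatives were a fit per line or pair of groups, the replicate block, repeated quantile normalization, aligned array medians, no dim genes, the mean of a gene's probes, array weights, and leaving out each array.

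Named genes were the 10 receptors, DUSP4, DUSP6 and MYC, up to 3 called genes per list with the smallest adjusted p in each mean effect, marker genes behind small counts, and the 2 genes most correlated with each called receptor. Other ligand, collagen, adaptor and receptor genes named, and values in single lines, were chosen after their values were seen. RB1 was used to check the labels. The members and lists were chosen with earlier results of these data known. FGF2 and 7 further listed genes had no single-gene probe and were not counted. Sequences are from RefSeq (GRCh38.p14). The table listed 9 of the 10 members.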

Additional observations from a re-analysis of the deposited data

Results flagged for a closer look

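Control means lay below the median probe level for PDGFRA and PDGFRB in MDA231 and BT549, and for KDR in BT549. The same held for FGFR2 in MDA231 and SUM159PT and for DDR2 in MDA231. A fall from such levels might not show, which limits the comparisons of lines given here. The following changes differed between the 3 lines by limma's F test of the line differences, adjusted over all genes. After siDUSP4 these were PDGFRB (adjusted p = 1.3e-05; changes of 0.08, -1.29 and -0.05 in MDA231, SUM159PT and BT549), KDR (6.2e-05; -0.28, 1.09 and 0.18) and PDGFRA (0.025; 0.35, -0.18 and -0.32, none of them called). At 4 h of selumetinib FGFR2 differed (0.0085; -0.27, 0.42 and 0.89). At 24 h the lines differed for DDR1 (0.00019; 1.05, 0.38 and -0.17), KDR (0.0022; -0.70, 0.28 and 0.18) and PDGFRB (0.019; 0.50, 0.98 and 0.14). For the step from 4 h to 24 h, where 28.2% of all genes differed between lines, they were PDGFRB (8.6e-05; 0.09, 1.19 and -0.03), DDR1 (0.00024; 0.89, 0.48 and -0.28), KDR (0.0028; -0.30, 0.70 and 0.27), FGFR2 (0.018; 0.22, -0.37 and -0.59) and DDR2 (0.028; -0.15, 0.33 and 0.14).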

How the results depend on the processing

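Of the changes of single receptors under the alternatives, 2803 kept their side of the threshold, 86 gained a call and 65 lost one. No change that was called in either fit reversed its direction. Changes called in neither fit were counted among the 2803 even where their sign differed. Where the move was large in proportion, the number of receptors called moved as follows, and the cause was not tested. After siDUSP4 it went from 0 to 1 in MDA231 (pair of groups alone, quantile normalization, aligned medians, no dim genes) or 2 (array weights), and from 0 to 1 (pair of groups alone, quantile) or 2 (weights) in BT549, and from 2 to 4 in SUM159PT (weights). At 4 h in MDA231 the count of 1 became 0 (line alone, pair of groups alone), 2 (replicate block, aligned medians), 3 (no dim genes) or 4 (weights). At 4 h in SUM159PT it went from 0 to 3 (line alone, pair of groups alone, weights), and in BT549 from 1 to 0 (line alone, pair of groups alone, no dim genes, where fewer genes are tested). At 24 h in SUM159PT the count of 2 became 1 with aligned medians or the mean of probes. The mean 4 h count of 2 became 1 (quantile, no dim genes), and the mean 24 h count of 3 became 5 (weights). From 4 h to 24 h the count went from 2 to 1 (line alone, pair alone) or 5 (weights) in MDA231, from 2 to 4 in SUM159PT (line alone, no dim genes, weights), from 1 to 0 in BT549 (line alone, pair alone, quantile, no dim genes), and from 3 to 5 in the mean (weights). Without dim genes the 5 calls between MDA231 and BT549 controls became 3. Moves of smaller proportion also occurred and are not all listed. At 24 h the count of 4 in MDA231 became 3 (line alone) or 5 (weights). The 24 h count of 2 in SUM159PT became 3 (line alone, pair of groups alone, quantile, weights). After siDUSP4 the count of 2 in SUM159PT became 3 (pair of groups alone, quantile). The mean siDUSP4 count of 3 became 2 (replicate block, mean of probes) or 4 (quantile, weights). Leaving out 1 array gave 0 to 1 after siDUSP4 in MDA231, 0 to 3 at 4 h in MDA231, 0 to 1 at 4 h in BT549, 1 to 2 at 24 h in SUM159PT, 2 to 4 in the mean 4 h effect, and, from 4 h to 24 h, 1 to 3 in MDA231, 1 to 3 in SUM159PT and 0 to 2 in BT549. The replicate block added PDGFRB at 4 h in MDA231 (0.41, adjusted p = 0.047) and DDR1 from 4 h to 24 h in SUM159PT (0.48, 0.045), ended DDR2 in the mean siDUSP4 effect (0.056) and the FGFR4 calls given with the levels, and changed no other call of a receptor.

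Repeated quantile normalization moved the share of called genes that were lower at 4 h from 92.9% to 73.0% in MDA231, 88.9% to 71.6% in SUM159PT, 75.2% to 61.4% in BT549 and 91.9% to 66.0% in the mean, and at 24 h from 68.8% to 55.7% in SUM159PT, 82.4% to 56.2% in BT549 and 72.6% to 54.5% in the mean. After siDUSP4 in BT549 it went from 65% to 51.7%, and from 4 h to 24 h from 18% to 39.9%, 22.8% to 41.1% and 75.3% to 54.2% in MDA231, SUM159PT and BT549. Aligned medians moved it from 55.4% to 65.6% after siDUSP4 in MDA231, and from 55.6% to 67% between SUM159PT and BT549 controls, where the median of all genes went from -0.013 to -0.155. The share of all genes called also moved under the alternatives other than leaving out an array. In MDA231, SUM159PT and BT549 it ran from 10.2% to 28.6%, 2.83% to 18.3% and 11.2% to 31.2% after siDUSP4, from 0.83% to 38.5%, 4.24% to 20% and 0.134% to 3.8% at 4 h, and from 11.4% to 29.9%, 4.24% to 17.6% and 0.0835% to 23% at 24 h.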
